A study of Mus musculus with 6 samples.

Results

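The genes described here are 10 genes of bone morphogenetic protein (BMP) signalling in mouse neurospheres: the ligand genes Bmp4 and Bmp7, the receptor genes Bmpr1a and Bmpr1b, the inhibitory Smad genes Smad6 and Smad7, and the target genes Id1, Id2, Id3 and Id4. They were picked by name, as a group of genes with known roles, when earlier results of these data were already known. Each had to have a transcript cluster, a group of probes that covers 1 transcribed region, annotated with its symbol alone. All 10 had exactly 1 such cluster, among 19937 genes measured in this way.

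Neurospheres are floating colonies that precursor cells form in culture. They were grown from hippocampal tissue of adult male C57BL/6J mice aged 8 to 12 weeks, in medium with EGF and bFGF, and collected on day 14. The medium also held 10 µM norepinephrine for 3 of the 6 arrays (N) and 15 mM potassium chloride for the other 3 (K), and the labels call the neurospheres of both groups small. Neither group was left untreated, so a difference does not show which of the treatments moved a gene. The labels call the samples biological replicates and do not say whether these came from separate animals. The p-values measure the spread between these arrays.

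BMP ligands bind a pair of type I and type II receptors, and the receptors phosphorylate Smad1, Smad5 and Smad9, which enter the nucleus with Smad4. Id1, Id2 and Id3 are classic direct targets of this signal. Id proteins are helix-loop-helix proteins without a DNA-binding region. They hold the E proteins, the partners that proneural and other lineage factors need, away from DNA. Smad6 and Smad7 are themselves induced by the pathway and restrain it. In the adult hippocampus BMP signalling is known for keeping neural stem cells quiescent and, in cultured precursors, for favouring astrocytes over neurons and oligodendrocytes.

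The upstream sequences of Id2, Id3 and Id4 are shown first, since the N and K arrays stood apart for Id2 and Id3 and overlapped for Id4. Each run holds the 250 bases before the start of the gene, 5′ to 3′ on the gene's strand, from RefSeq on GRCm38.p6. Id2 lies on chromosome 12 on the minus strand and its window is chr12:25096093-25096342. Id3 lies on chromosome 4 on the plus strand and its window is chr4:136143572-136143821. Id4 lies on chromosome 13 on the plus strand and its window is chr13:48260866-48261115. Capitals mark the Smad box GTCT, or AGAC where it reads on the other strand, and the GC-rich element GGCGCC, which reads alike on both strands.
Id2: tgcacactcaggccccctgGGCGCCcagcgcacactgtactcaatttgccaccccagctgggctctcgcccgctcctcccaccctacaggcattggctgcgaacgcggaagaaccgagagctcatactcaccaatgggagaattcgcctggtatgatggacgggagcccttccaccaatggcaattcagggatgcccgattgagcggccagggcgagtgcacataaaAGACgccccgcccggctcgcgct
Id3: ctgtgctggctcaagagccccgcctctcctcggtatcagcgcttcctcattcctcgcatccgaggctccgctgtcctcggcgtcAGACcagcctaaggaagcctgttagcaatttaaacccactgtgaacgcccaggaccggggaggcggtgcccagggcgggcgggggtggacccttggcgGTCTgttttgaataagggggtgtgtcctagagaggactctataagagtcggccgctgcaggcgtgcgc
Id4: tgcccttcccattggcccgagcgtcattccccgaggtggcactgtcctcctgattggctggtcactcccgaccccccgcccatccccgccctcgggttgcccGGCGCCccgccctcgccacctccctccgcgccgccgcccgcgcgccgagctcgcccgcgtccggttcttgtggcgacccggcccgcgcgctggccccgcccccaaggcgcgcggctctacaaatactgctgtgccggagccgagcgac

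Id2 held the GC-rich element once, from 231 to 226 bases before the start, and the Smad box once, from 23 to 20 bases before it. Id3 held no GC-rich element and the Smad box at 2 places, which begin 166 and 68 bases before the start. Id4 held the GC-rich element once, from 148 to 143 bases before the start, and no Smad box. The Smad box was present in 82.9% of the 32851 windows of this length and the GC-rich element in 9.59%. TGACG, a short motif of the cAMP-responsive factor CREB, was searched on both strands as well and is not in capitals. It stood once in the window of Id3, where it overlaps the first Smad box by 1 base, once in that of Id4, and in 17.8% of all windows. A match is a run of letters and not a known site, and its bearing on a difference between N and K was not tested. Sequence further upstream was not searched. Windows were at hand for 7 of the 10 genes, and not for Id1, Bmp7 or Smad7. Of the other 4 genes with a window, Bmpr1a held the GC-rich element once. Bmp4, Smad6 and each of the 3 windows of Bmpr1b held the Smad box without it.

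The authors made the values by robust multi-array averaging (RMA), on a log2 scale. Array medians lay between 6.30 and 6.40, and K replicate 3 correlated least with the rest of its group (mean r = 0.948 across clusters). The range of values within an array, without the lowest and highest 10%, was narrower on K replicates 1 and 3 (4.894 and 4.846). On the other arrays it ran from 5.068 to 5.135. The part of this range in small differences between N and K, and in their signs, was not tested. The values of K replicate 2 were closer to the N arrays (mean r = 0.969) than to its own group (mean r = 0.954), and those of K replicate 1 slightly so (0.9548 and 0.9535); without K replicate 2 the share of all genes at an unadjusted P under 0.05 was 14.6%. The precursor markers Sox2 and Fabp7 averaged 10.03 and 12.81 over the 6 arrays, and 5 of 6 precursor markers lay above the median of all clusters, 6.34. None of 6 endothelial markers did. Of the 8 marker lists, that of astrocytes had the largest median difference: the mean of 6 markers ran from 9.15 to 9.59 on the N arrays and from 8.42 to 8.52 on the K arrays. The tests below are from limma (lmFit and eBayes), fitted over all 19937 genes, with p-values adjusted over all of them by the Benjamini-Hochberg method.

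No member of the group reached an adjusted p under 0.05 in the comparison of N with K, where 0.155% of all genes tested did. The smallest adjusted p among the 10 was 0.539 (limma), that of Id2. None of the 10 met the study's rule for changed genes either, a log2FC over 1 in size with an unadjusted P under 0.05, which 0.492% of all genes met. The intervals nevertheless bound the size of a difference in the array values. The 95% interval of the log2FC lay within 1 of 0 for all 10 genes, and for 9 of them within a 1.5-fold change, with Id2 as the exception. These intervals hold gene by gene and are not adjusted for the number of genes. The clusters of Bmp4, Smad6 and Smad7 lay below the median of all clusters. Whether a change in their transcripts would show in such values was not tested. In RNA of whole neurospheres, fewer cells that express a gene and less RNA per cell cannot be told apart.

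**Figure D1:**
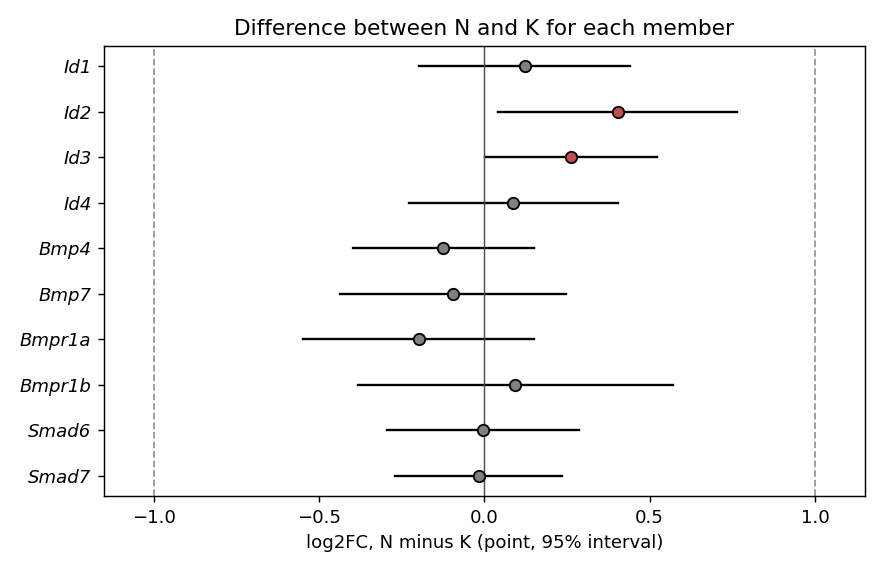
Points on the horizontal axis give the log2FC, N minus K, of each of the 10 genes, each with its 95% interval from limma (n = 3 arrays per group); red points have an unadjusted P under 0.05 and dashed lines mark a log2FC of 1 in size. Every interval ends inside the dashed lines, and those of Id2 and Id3 alone leave out 0, Id3 by a margin under 0.001.

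At an unadjusted P under 0.05, 2 of the 10 genes stood out, Id2 and Id3, both higher with N, against 8.54% of all genes in either direction, 4.64% higher and 3.89% lower with N. These were also the 2 of 10 whose N arrays all lay above their K arrays, as did 5.78% of all genes. None of the 10 had N arrays that all lay below the K arrays, as 7.55% of all genes did. Neither survived adjustment over all genes.

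Id2, which lies on chromosome 12 from 25093799 to 25096092, had log2 values of 7.66, 7.82 and 8.01 on N replicates 1 to 3 and of 7.18, 7.45 and 7.65 on K replicates 1 to 3. The groups did not overlap, but N replicate 1 and K replicate 3 all but met. The mean was 7.83 ± 0.18 with N and 7.43 ± 0.24 with K (SD, n = 3 arrays each). The log2FC was 0.40 (standard error 0.16, interval 0.04 to 0.77, adjusted p = 0.539 from limma), a 1.32-fold higher level with N. Id2 had the largest log2FC of the 10 in size, and 91.7% of all genes tested had one no larger. Its unadjusted P was 0.0329, and it was 0.119 without K replicate 1, the lowest array, and 0.115 without N replicate 3, the highest.

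Id3, on chromosome 4 from 136143822 to 136145392, had values of 7.62, 7.50 and 7.67 with N and of 7.36, 7.37 and 7.28 with K. Its arrays lay closer together within each group than those of Id2, and the groups stood apart. The mean was 7.60 ± 0.08 with N and 7.34 ± 0.05 with K, which gave a log2FC of 0.26 (standard error 0.11, interval 0.0008 to 0.52, adjusted p = 0.583 from limma). That is a 1.20-fold higher level with N, at an unadjusted P of 0.0494. Leaving out any 1 of the 6 arrays brought this P to between 0.0569 and 0.140.

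Id1, the member of the family most often read as a BMP response, is on chromosome 2 from 152736251 to 152737410. Its values were 6.75, 6.86 and 7.05 with N and 6.84, 6.57 and 6.88 with K. The groups overlapped, and only N replicate 3 lay above all K arrays. The log2FC was 0.12 (standard error 0.14, interval -0.20 to 0.44, adjusted p = 0.861 from limma). With 1 array left out it ran from 0.03 (without K replicate 2) to 0.19 (without N replicate 1), and it was 0.04 without N replicate 3.

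Id4, on chromosome 13 from 48261116 to 48266028, had values of 7.06, 7.04 and 6.98 with N and 7.00, 7.12 and 6.70 with K. The K arrays spanned the N arrays on both sides. The log2FC was 0.09 (standard error 0.14, interval -0.23 to 0.40, adjusted p = 0.903 from limma), and without K replicate 3, the lowest array, it was -0.03. All 4 Id genes thus had a log2FC above 0 with all arrays, with a median of 0.19 beside -0.03 over all genes tested, while the intervals of Id1 and Id4 include 0. Whether the Id genes differ from each other in response was not tested.

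**Figure D2:**
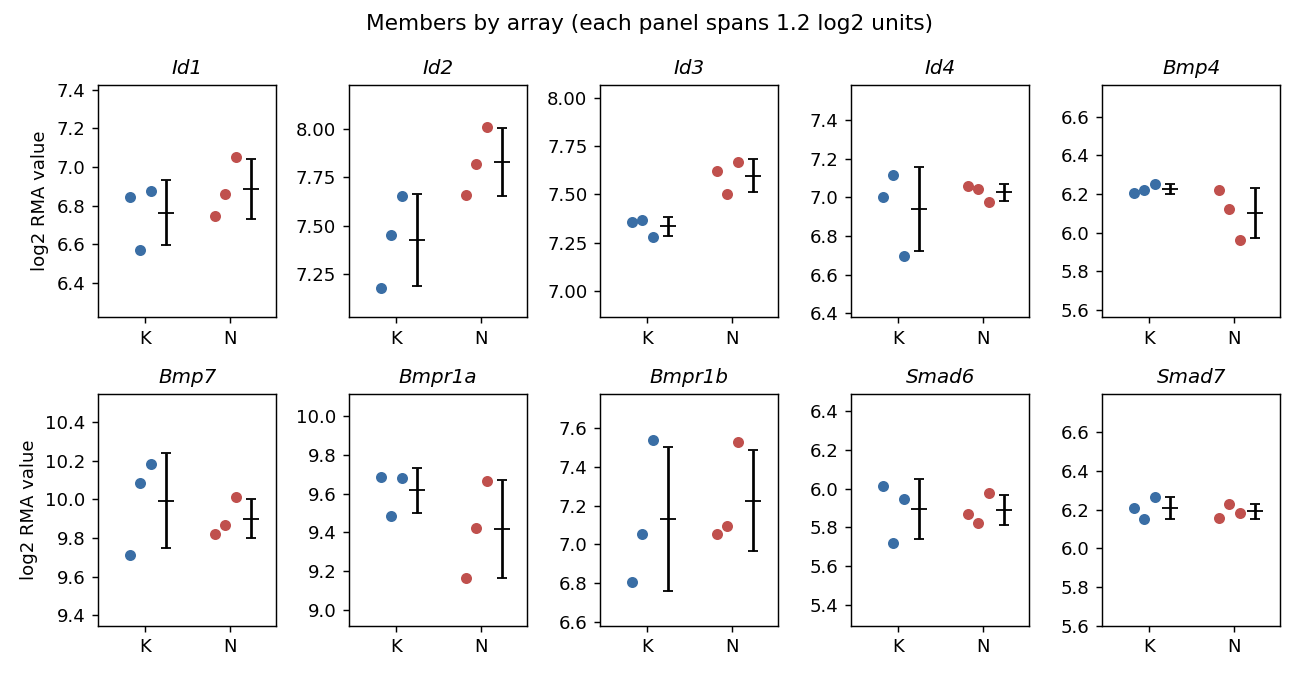
Log2 RMA values (vertical axes) of the 10 genes on the 3 K arrays (blue) and the 3 N arrays (red), in replicate order from left to right, with mean ± SD as black bars; each panel spans 1.2 log2 units around the gene's own mean. The groups stand apart for Id2 and Id3 and overlap in the other 8 panels.

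The 6 astrocyte markers, like Id2 and Id3, all had a positive log2FC, with a median of 0.71, and for 5 of them the groups did not overlap. Their log2FC ran from 0.15 for Slc1a3, less than that of Id2 or Id3 and with groups that overlapped, to 1.66 for Gfap. Gfap, which encodes the main intermediate filament of astrocytes, was the only one of the 6 to differ at an adjusted p under 0.05. It was higher with N (log2FC 1.66, standard error 0.21, adjusted p = 0.0358 from limma). It kept that call under 4 of 15 alternatives and lost it with any 1 array left out (adjusted p from 0.0611 to 0.145 from limma), while its log2FC stayed between 1.46 and 1.81. N replicate 3 had both the highest mean of the astrocyte markers, 0.67 above its mean over the 6 arrays, and the highest values of Id1, Id2 and Id3. On N replicate 2 that mean was 0.23 above and on N replicate 1 0.41 above, while Id2 was higher on N replicate 2 than on N replicate 1 and Id3 was lower. The part of the astrocyte markers in the values of Id2 and Id3 was not tested. The mean of 6 endothelial markers, all below the median of all clusters, ran from 5.71 to 5.86 with N and from 5.72 to 5.88 with K. Of these markers Tek was lowest, at a mean of 5.07 over the 6 arrays. Of the 6 pericyte and meningeal markers, 3 lay above the median of all clusters, and none had an unadjusted P under 0.05. Nor did any of the measured markers of oligodendrocytes (5), microglia (6) or choroid plexus (6). Of 6 neuron and neuroblast markers 3 did, Tubb3 and Snap25 with a higher and Map2 with a lower value with N (log2FC 0.47, 0.81 and -0.32), and of 6 precursor markers 2 did, Prom1 with 0.40 and Nes with -0.53; none of these 5 was called at an adjusted p under 0.05.

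**Figure D3:**
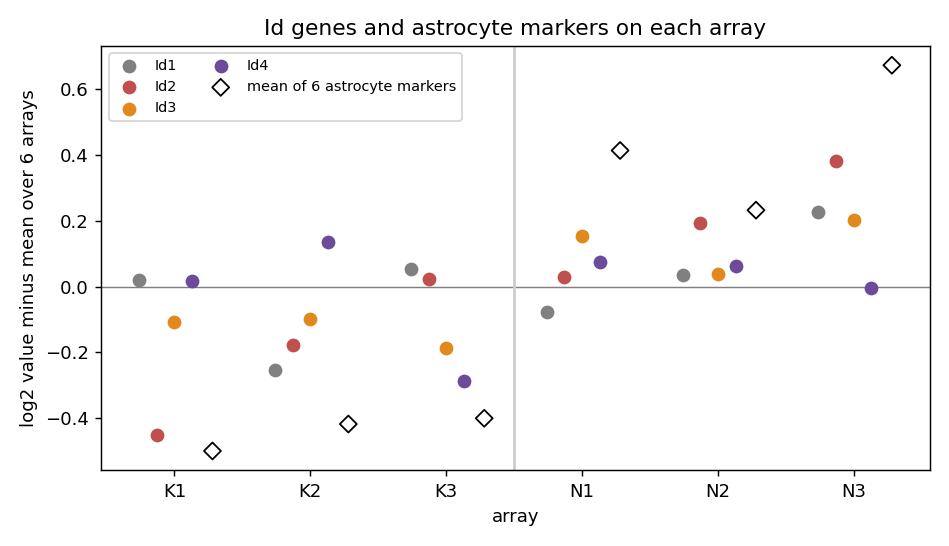
Log2 value minus the mean over the 6 arrays (vertical axis) on each K and N array (horizontal axis), for Id1, Id2, Id3 and Id4 (filled circles) and for the mean of 6 astrocyte markers (open diamonds). The diamonds lie between -0.50 and -0.40 on the K arrays and between 0.23 and 0.67 on the N arrays, a wider step than that of any Id gene.

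For both ligand genes the N and K arrays overlapped. Bmp7, on chromosome 2 from 172868012 to 172940321, encodes a ligand of many developing and adult tissues. Its values were 9.82, 9.86 and 10.01 with N and 9.71, 10.08 and 10.18 with K, so that K replicate 1 was the lowest of all arrays and K replicate 3 the highest. The log2FC was -0.09 (standard error 0.15, interval -0.44 to 0.25, adjusted p = 0.904 from limma). Bmp4, a ligand used widely to turn cultured precursors to astrocytes, is on chromosome 14 from 46383525 to 46390669. Its values were 6.22, 6.12 and 5.96 with N and 6.20, 6.22 and 6.25 with K. The K arrays lay within a narrow band (SD 0.03), below the median of all clusters, and N replicate 1 fell inside it. The log2FC was -0.12 (standard error 0.12, interval -0.40 to 0.15, adjusted p = 0.832 from limma), and it ran from -0.18 without N replicate 1 to -0.05 without N replicate 3.

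Both receptor genes encode type I receptors, the kinases that phosphorylate the Smads. Bmpr1a, on chromosome 14 from 34411061 to 34503336, had values of 9.16, 9.42 and 9.67 with N and 9.69, 9.48 and 9.68 with K. It had the lowest log2FC of the 10, -0.20 (standard error 0.15, interval -0.55 to 0.15, adjusted p = 0.793 from limma), and N replicate 1 was the lowest array. Without that array the log2FC was -0.07, and without N replicate 3, the highest N array, it was -0.32. Bmpr1b, on chromosome 3 from 141837135 to 142169585, had values of 7.05, 7.10 and 7.53 with N and 6.81, 7.05 and 7.54 with K. Replicate 3 was the highest array in both groups, and the spread within a group (SD 0.26 with N and 0.37 with K) was wider than for any other of the 10 genes. The log2FC was 0.09 (standard error 0.21, interval -0.38 to 0.57, adjusted p = 0.938 from limma).

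Smad6 and Smad7, the inhibitory Smads that the pathway induces as feedback, were the flattest of the 10. Smad6, on chromosome 9 from 63953076 to 64022085, had values of 5.87, 5.82 and 5.98 with N and 6.01, 5.72 and 5.95 with K. Its log2FC was -0.004 (standard error 0.13, interval -0.29 to 0.29, adjusted p = 0.996 from limma). Smad7 had values of 6.16, 6.23 and 6.18 with N and 6.21, 6.15 and 6.26 with K, all within the same narrow range. Its log2FC was -0.02 (standard error 0.11, interval -0.27 to 0.24, adjusted p = 0.981 from limma). Both clusters lay below the median of all clusters on average, as did that of Bmp4. Smad6, Smad7, Bmp7, Bmpr1b and Id4 met the study's rule for unchanged genes, a log2FC under 0.1 in size with a P over 0.1. That is 5 of 10, where 41.7% of all genes met it. Which genes met it depended on the scaling of the arrays, as given in the last section.

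The wider pathway was described with 7 lists of 61 genes, 58 of which were measured; the other 3 are not analysed here. None of the 58 differed at an adjusted p under 0.05 (limma), and 2 had an unadjusted P under 0.05, 1 in each direction, against 8.54% of all genes. The median log2FC was -0.06, beside -0.03 over all genes tested, with 20 genes above 0 and 38 below. Of the 10 members 5 lay below 0, and of all genes tested 57%. The 95% interval lay within 1 of 0 for each of the 58, of which 37 lay above the median of all clusters.

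Among extracellular antagonists, Chrdl1, which encodes a chordin-like protein that binds BMPs, had the largest log2FC of the lists. Its values were 8.19, 8.50 and 8.26 with N and 7.64, 8.18 and 7.69 with K. The N arrays all lay above the K arrays, though N replicate 1 and K replicate 2 were close. The log2FC was 0.48 (standard error 0.17, interval 0.09 to 0.88, adjusted p = 0.490 from limma). Of 13 antagonists and modulators 5 had a log2FC above 0. The antagonists Nog and Chrd had -0.14 and -0.08 (standard errors 0.13 and 0.12), and Bambi, a decoy receptor that the pathway itself induces, had -0.14 (standard error 0.17).

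Among 13 further genes of BMP and GDF ligands, the other gene with an unadjusted P under 0.05 was Bmp10, a ligand of the heart. It had a log2FC of -0.32 (standard error 0.14, adjusted p = 0.584 from limma). Its cluster was dim (4.16 ± 0.21 with N and 4.49 ± 0.11 with K, SD of 3 arrays each), and the groups overlapped. Gdf11, the ligand gene with the highest mean, had 0.38 (standard error 0.18), Bmp6 0.03 and Bmp2 -0.11. Of 8 receptor and co-receptor genes none had a log2FC beyond 0.16 in size. Bmpr2, a type II receptor gene, had -0.16 (standard error 0.12), and Acvr1, a type I receptor gene, -0.05 (standard error 0.13).

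Among the Smads that carry the signal, Smad1 had a log2FC of 0.06 (standard error 0.18), Smad5 -0.12 (standard error 0.13) and the common partner Smad4 -0.19 (standard error 0.14), and none of the 4 transducers had an unadjusted P under 0.05. Among 6 intracellular restraints, which include ubiquitin ligases and corepressors of the Smads, the phosphatase gene Ppm1a had the highest mean and a log2FC of 0.14 (standard error 0.18). Among 6 other target genes Hey1, which also answers to Notch, had 0.44 (standard error 0.21, adjusted p = 0.636 from limma), with N and K arrays that overlapped.

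The partners of the Id proteins complete the lists. Of 8 measured bHLH genes 6 had a log2FC below 0, and none had an unadjusted P under 0.05. The E protein genes Tcf12 and Tcf4 had -0.21 and 0.06 (standard error 0.13 for both), and Olig2, a factor of the oligodendrocyte lineage, -0.20 (standard error 0.13, adjusted p = 0.731 from limma). Olig1, named after its values were seen, had N arrays that all lay below the K arrays, at 9.61, 9.45 and 9.60 against 9.82, 9.83 and 9.76, with a log2FC of -0.25 (standard error 0.11, adjusted p = 0.598 from limma). In all, 5 of the 58 genes had groups that did not overlap, where 13.3% of all genes did. N was higher for Chrdl1 and Bmp5, and lower for Olig1, the corepressor gene Skil and the antagonist gene Fst. Bmp5, Skil and Fst were named after their values were seen as well, with log2FC of 0.20, -0.30 and -0.17 (standard errors 0.13, 0.15 and 0.11). Their clusters lay below the median of all clusters, at means of 4.73, 5.99 and 6.27 over the 6 arrays. None of these had an unadjusted P under 0.05.

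**Figure D4:**
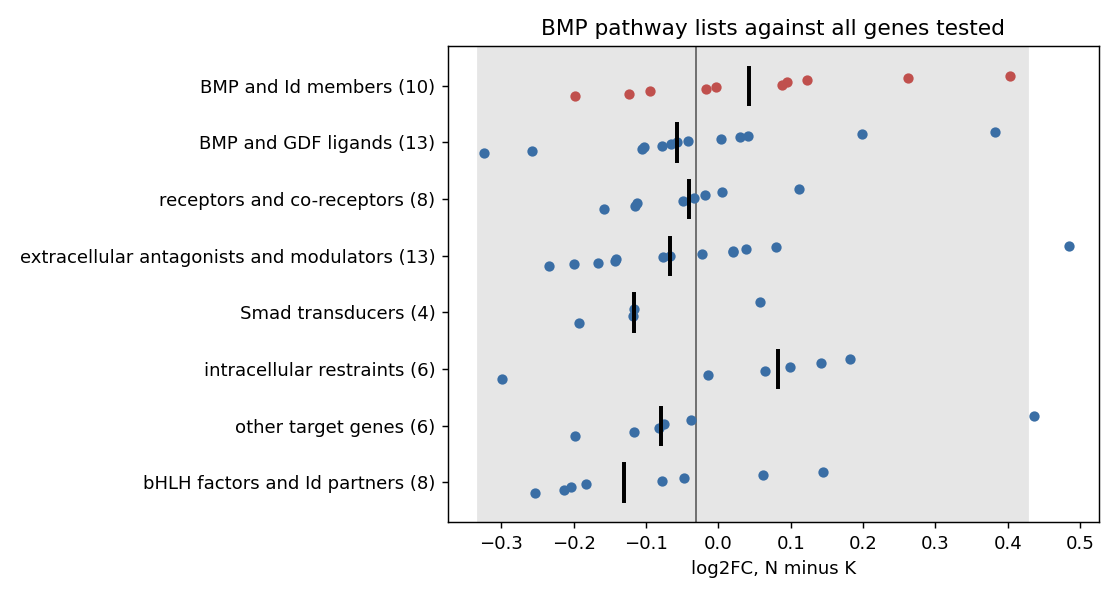
Horizontal axis, the log2FC (N minus K) of the 10 genes (red) and the measured genes of the 7 pathway lists (blue, number in brackets), with a black bar at each median; the grey band holds the middle of all genes tested, from the 5th to the 95th percentile (-0.33 to 0.43), and the thin line their median. Of the list genes 2 lie outside the band, Chrdl1 and Hey1, and of the 10 genes none.

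The genes whose pattern over the 6 arrays was most like that of the mean of Id1 and Id3 were sought among 11211 other genes above the median of all clusters. The 5 with the highest Pearson r were Ckmt1, a mitochondrial creatine kinase gene (r = 0.989), Entr1 (r = 0.987), the kinase gene Vrk3 (r = 0.981), Lonrf2 (r = 0.977) and Fndc3a (r = 0.975). With 6 points and this many genes, such values describe a likeness and carry no test. Id1 and Id3 themselves correlated at r = 0.387 over the 6 arrays. K replicate 2 was the lowest array of Id1, and K replicate 3 that of Id3. The profile was highest on N replicate 3 and lowest on K replicate 2, and Ckmt1 followed it with 7.88 on the first and 6.55 on the second. Ckmt1 had a log2FC of 0.66 (standard error 0.20, adjusted p = 0.386 from limma), and none of the 5 reached an adjusted p under 0.05. The N arrays of the profile all lay above its K arrays, so the choice of these genes favoured a positive log2FC.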

How the data were processed

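RNA of 6 neurosphere samples, 3 per group, was hybridised to Affymetrix mouse gene arrays. The authors summarised the scans with RMA in Partek Genomics Suite, and the deposited values are log2 values per transcript cluster; versions and settings are not given in the sources used here. RMA normalizes between arrays, so a shift shared by all genes would not be seen. All 34760 clusters were read, the 21640 with exactly 1 symbol were kept, and the cluster with the highest mean stood for a gene, which left 19937 genes. All 6 columns were matched to samples through the labels.

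N minus K was fitted with limma 3.58.1 in R 4.3.3 without further terms (4 residual and 4.59 prior degrees of freedom), and no filter on dim clusters. The fit was tested on simulated data. Exact permutation of 3 against 3 arrays reaches no p below 0.1, so none was used. The number of arrays limits the precision.

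The members, pathway lists, marker lists and alternatives were chosen with earlier results of these data known. Named are all 10 members, list genes at an unadjusted P under 0.05, the gene of each list with the highest mean, 12 preset genes and the 5 genes most like the mean of Id1 and Id3; others are marked. No set test was run. The alternatives were 9 changes of model, normalization, filter or gene table, and each array left out. Figures were drawn with matplotlib 3.10.9.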

Additional observations from a re-analysis of the deposited data

How the results depend on the processing

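None of the 10 genes and none of the 58 list genes was called at an adjusted p under 0.05, and none of the 10 by the study's rule, with all arrays or under any of the 15 alternatives; the lowest adjusted p of any member was 0.356 (limma), that of Id3 without K replicate 2. In that setting 14.6% of all genes had an unadjusted P under 0.05. Over all genes 31 were called, 1 with an ordinary linear model, 12 with quantile or cyclic loess normalization, 3 with arrays centred on the median, 0 with all transcript clusters (2174 at an unadjusted P under 0.05) and from 0 to 21 with 1 array left out.

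The count of members at an unadjusted P under 0.05, Id2 and Id3, is fragile. It was 1 with the replicate block, the ordinary linear model, eBayes with trend and robust, or clusters above the median only, 0 with all transcript clusters, and 0 or 1 with 1 array left out. Id2 was the remaining gene without N replicate 1 and without K replicate 3 (P of 0.0276 and 0.0126), and none remained without N replicate 2, N replicate 3, K replicate 1 or K replicate 2. The log2FC of Id2 ran from 0.28 to 0.52 and that of Id3 from 0.23 to 0.31 over the alternatives, all ends with 1 array left out. For list genes the count of 2 became 1 with the replicate block, with clusters above the median only, with arrays centred on the median and with all transcript clusters, 4 with quantile or cyclic loess normalization, and 1 to 3 with 1 array left out.

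Of the 10 genes 5 kept their sign throughout: Id1, Id2, Id3, Bmp4 and Bmpr1a. Only the normalizations, the centring on the median and the arrays left out could change a sign. The other alternatives leave the log2FC of these genes as it is. Smad6 turned to 0.037, 0.050 and 0.023, and Smad7 to 0.018, 0.028 and 0.010, with quantile normalization, cyclic loess normalization and arrays centred on the median. Both still met the study's rule for unchanged genes under each of these scalings. In the same order, Id4 had 0.106, 0.104 and 0.115 and no longer met that rule. Bmp7 (-0.184, -0.166 and -0.068) and Bmpr1b (0.078, 0.102 and 0.121) met it under some of the scalings. Bmp4 met it under each (-0.087, -0.078 and -0.097). With 1 array left out, Smad6 ran from -0.091 to 0.056, Smad7 from -0.044 to 0.011, Bmp7 from -0.23 to 0.0001125, Bmpr1b from -0.069 to 0.30 and Id4 from -0.032 to 0.18. The cause was not tested. The scalings moved the median log2FC of all genes from -0.03 to between -0.01 and 0.002. With clusters above the median only, that median was 0.009. The replicate numbers are not known to pair the arrays. Deviations of same-numbered arrays from their group means correlated at 0.0434, 0.0429 and 0.121 across genes. Those of differently numbered N and K arrays correlated at between -0.144 and 0.113. The model with the replicate block called 41 genes and 0 members. With clusters above the median only, Bmp4, Smad6 and Smad7 had no value.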
